A study of Drosophila melanogaster with 12 samples.

Results

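The 6 male libraries of a series of 12 were compared here: 3 of control larvae (genotype yw; libraries numbered 1 to 3) and 3 of clamp null larvae (genotype yw;Clampnull; libraries numbered 4 to 6), all at the third instar (L3). They were chosen by genotype and sex in the library titles. The other 6 libraries hold the females of both genotypes and serve only to sort genes into classes and to compare the effect of genotype between the sexes. Each library is one of whole larvae, 3 larvae per library, grown at 24 °C, and the RNA sequenced was polyadenylated. The y and w mutations are carried by all groups, so they do not distinguish controls from nulls. According to the study the null allele is clamp2, the null larvae do not pupate, and homozygous null males die before late L3, which limits how far null and control males of one instar are of one age. Nothing in the labels gives the hours of development, and age and genotype cannot be told apart in this design. A separate sex field of the labels calls every control library female and every null library male. Since it goes against the titles, no use was made of it.

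CLAMP is a zinc finger protein that binds GA-rich DNA and helps to bring the MSL complex to the X chromosome of males. The MSL complex, built from msl-1, msl-2, msl-3, mle and mof products with noncoding RNA, raises transcription of the single male X. The end of L3 is governed by the steroid ecdysone, which switches on glue protein genes in the salivary glands, regulators such as br and EcR, and enzymes and cuticle proteins of the coming moult. A male L3 larva also has testes with spermatogonia and spermatocytes, whose transcripts are read together with those of all other tissues when whole larvae are used.

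Abundance is given in TPM, a measure corrected for transcript length that sums to 1000000 in each library, and was summed over the transcripts of a gene. In total, 11384 of 13771 genes averaged at least 1 TPM over the 6 male libraries and were tested; DIP-theta lay just inside this limit with 1.001 TPM and CG1441 just outside with 0.999 TPM. The test was limma on log2(TPM + 1) with Benjamini-Hochberg adjustment over all genes tested, and a gene was called at an adjusted p under 0.05. Fold changes are differences of log2(TPM + 1), null minus control, and understate the change of genes near 0. The files used hold no read counts, which leaves the depth of each library unknown, and the labels do not say whether libraries of a group came from separate cultures, so p-values measure the spread between these libraries only. To separate testis-type genes from others, genes were sorted by the 3 control female libraries alone: 9292 tested genes with a female mean of at least 1 TPM are called female-detected, 1173 under 0.5 TPM in each control female are called female-undetected, and 919 lay between. The classes separate testis-type genes only in part. Female-detected were 10 of 36 tested spermatid and sperm genes and 5 of 14 tested spermatocyte regulators. Mst84Db, a sperm gene among them, had 0, 6.13 and 0 TPM in control females 1 to 3. A female-undetected gene passes the filter only through male libraries, so its counts are a description. A gene near 0 in controls or in nulls passes only through the other group. The direction of its change is then fixed, and its fold change and p-value are likewise a description.

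The 3 clamp null males were not alike, and null male 6 stood apart from null males 4 and 5. At least 1 TPM was reached by 11245, 11321 and 11226 genes in control males 1 to 3, by 8968 and 8941 genes in null males 4 and 5, and by 10339 genes in null male 6. Across the 9292 female-detected genes, null male 6 correlated with null males 4 and 5 at Pearson's r of 0.862 to 0.903, while null males 4 and 5 correlated with each other at 0.940 and with the 3 null females at 0.945 to 0.953. These are correlations across genes of whole-larva libraries and are given as a description. Sex-specific transcripts did not settle the sex of null males 4 and 5. Transcripts with the male exon of dsx (chromosome 3R, 7930171 to 7930687) made up 93.8% to 100% of dsx TPM in control males and 71.7% to 92.9% in control females, and 76.8%, 100% and 100% in null males 4 to 6, at 1.93 TPM or less in each. Transcript RB of tra made up 19.8% to 47.3% of tra TPM in control males, 3.74% to 15.4% in control females, 6.45%, 0% and 14.0% in null males 4 to 6 and 7.60% to 35.2% in null females. The null males thus lay at or below the range of control females for tra, but null females reached into that of control males. None of 9 Y-linked fertility genes listed reached a mean of 1 TPM, and their summed level was at most 3.22 TPM in a control male and 0 in every null male. A male larva with little testis RNA and a larva of the other sex therefore cannot be told apart for null males 4 and 5 from the values given here. The counts over all genes and by class are therefore given with all 3 nulls, without null male 6, and for null male 6 alone; those of a list are given without a library where that moves them by over 1.5 times.

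Clamp itself (FBgn0032979; chromosome 2L, 22165720 to 22169143 of dm6) had 59.2, 58.5 and 43.4 TPM in control males 1 to 3 and 22.8, 21.4 and 21.9 TPM in clamp null males 4 to 6. All null values lay below all control values, and transcript remained in every null library (log2 fold change -1.24, SE 0.22, adjusted p = 0.0042). The exons of Clamp overlap those of CG42748, and where in the transcript the null allele differs was not examined here. The 5 genes for proteins of the MSL complex were all lower in null males. For msl-2, whose product is made in males only and nucleates the complex, the libraries had 13.99, 12.96 and 13.2 TPM in control males 1 to 3 and 1.79, 2.57 and 5.01 TPM in clamp null males 4 to 6. It was the member that fell furthest (log2 fold change -1.88, SE 0.34, adjusted p = 0.0047), and null male 6 kept the highest of the null values. msl-3, a chromodomain protein, had 23.6, 24.5 and 26.3 TPM in control males 1 to 3 and 8.796, 12.8 and 12.8 TPM in clamp null males 4 to 6 (log2 fold change -1.06, SE 0.24, adjusted p = 0.01). The helicase gene mle fell by 0.82 on the log2 scale (adjusted p = 0.019) and the acetyltransferase gene mof by 1.33 (adjusted p = 0.016). msl-1 changed by -0.83, with an adjusted p of 0.038 that passed the threshold in only 1 of the 6 fits that each left out 1 library. The list kept 6 calls in the fit without null male 6 but 3 in the fit without control male 2.

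How many genes of this list fell depends on the scale, as does the count over all genes. In TPM, 1116 genes were higher in null males (9.8% of those tested) and 4954 were lower (43.5%), and the median log2 fold change over all genes was -0.78. After median-of-ratios scaling, which sets the typical gene equal between libraries, the median moved to -0.26, and 1799 genes were higher (15.8%) and 2949 lower (25.9%). Among calls, the share of lower genes was 81.6% in TPM and 62.1% after scaling. Without null male 6, 1394 genes were higher (12.2%) and 5417 lower (47.6%), and null male 6 alone against the controls gave 1027 and 4379. Every gene called lower after scaling was also called lower in TPM, and every gene called higher in TPM was also higher after scaling. The scaled value is given below where the call depends on it. For Clamp the fall was called on both scales (-0.66, adjusted p = 0.041 after scaling), as it was for msl-2 (-1.37, adjusted p = 0.02), but msl-1, msl-3, mle and mof were not called after scaling (-0.36, -0.51, -0.27 and -0.84).

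Among the 9292 female-detected genes, 998 were higher (10.7%) and 3442 lower (37%) in null males, with a median log2 fold change of -0.62. The class holds some testis genes, so these falls are not all of other tissues. After median-of-ratios scaling the counts were 1667 (17.9%) and 1639 (17.6%), with a median of -0.10, and rises and falls were thus nearly equal in number on that scale. After rescaling without glue genes, described with those genes, the counts were 838 and 4370. Called in TPM and after median-of-ratios scaling in the same direction were 998 rises and 1639 falls. Each of the 3 null libraries lay on the called side of the control mean for all 998 rises and all 3442 falls, with a median log2 ratio to the control mean of 1.64, 1.77 and 1.48 for the rises and -1.59, -1.39 and -1.30 for the falls in null males 4, 5 and 6. A call needs a small spread within the group, so this likeness of the nulls is in part fixed by the choice of genes. Without null male 6 the counts were 1252 (13.5%) and 3797 (40.8%), and for null male 6 alone 905 and 3168. The count of falls dropped to 2164 without control male 1 and to 2199 without control male 2. Read against these shares, the lists of larval genes below fall into groups that were lower, groups that were higher and groups that changed little. Where a list is said to hold no call in a direction, limma gave none at an unadjusted p under 0.05 either, except for 1 lower gene of the haemocyte list. In whole larvae, fewer cells of a type and less RNA per cell cannot be told apart.

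**Figure D1:**
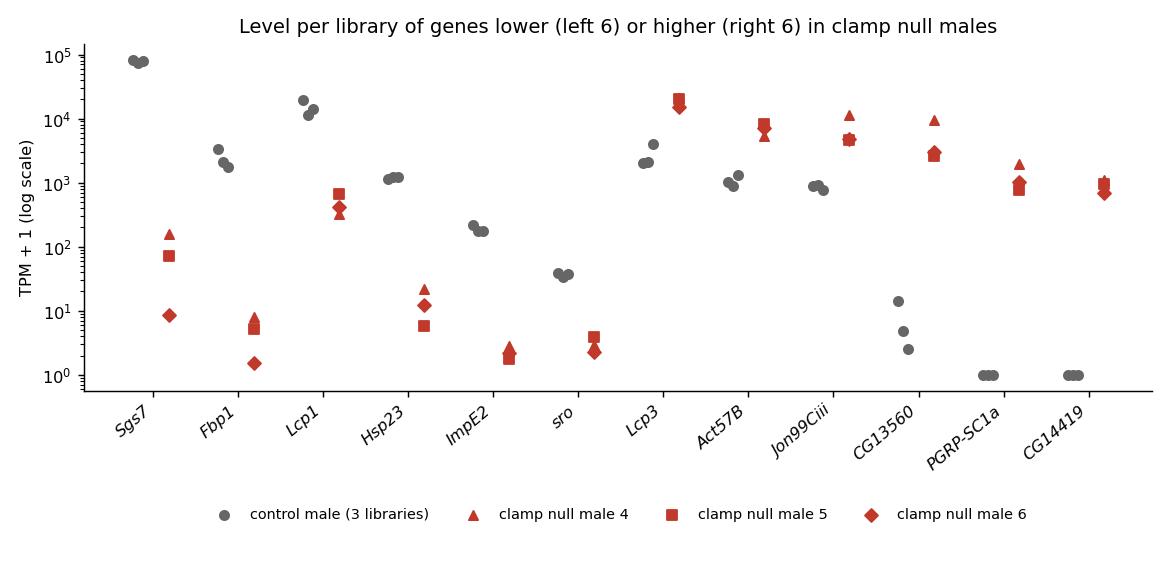
TPM plus 1 on a log scale for 12 genes in each male library; grey points are the 3 control males and red symbols the clamp null males 4, 5 and 6. Sgs7, Fbp1, Lcp1, Hsp23, ImpE2 and sro were lower in all 3 null libraries than in any control, and Lcp3, Act57B, Jon99Ciii, CG13560, PGRP-SC1a and CG14419 were higher, the last 2 being listed at 0 TPM in every control.

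The salivary gland glue genes showed the largest falls. Sgs7 (chromosome 3L, in a cluster with Sgs3 and Sgs8) was among the most abundant transcripts of control males, with 82867, 74871 and 79889 TPM in control males 1 to 3 and 157, 70.4 and 7.49 TPM in clamp null males 4 to 6. Its neighbour Sgs8 had 17966, 14386 and 17602 TPM in control males 1 to 3 and 39.2, 0 and 0 TPM in clamp null males 4 to 6. Sgs3, a mucin-like glue protein gene, had 23347, 11266 and 12785 TPM in control males 1 to 3 and 51.5, 23.8 and 2.53 TPM in clamp null males 4 to 6. In all 3 genes every null library was far below every control, and null male 6 had the lowest or joint lowest value. Log2 fold changes were -10.76 (adjusted p = 0.0007), -12.24 (adjusted p = 0.0011) and -9.81 (adjusted p = 0.00079). Sgs4 on the X chromosome (log2 fold change -10.17, SE 0.68, adjusted p = 0.00034), Sgs5 (log2 fold change -9.77, SE 0.29, adjusted p = 2.5e-05), Sgs5bis (log2 fold change -9.24, SE 0.42, adjusted p = 0.00011) and Eig71Ee, an ecdysone-induced gene of a late puff (log2 fold change -8.95, SE 0.55, adjusted p = 0.0003), fell likewise. Of 11 tested members of the glue list 8 were lower and 3 higher, the same split after scaling, and the falls stayed at 8 in each fit that left out a library. The 3 members that rose, ng1, ng2 and ng3, named here after their values were seen, are intermoult genes of the same gland that are active before the Sgs genes. ng3 had 721, 766 and 1562 TPM in control males 1 to 3 and 8646, 7766 and 1822 TPM in clamp null males 4 to 6, so that null males 4 and 5 were above every control and null male 6 only just. The list as a whole took 151683, 118224 and 130596 TPM in control males and 15014, 10442 and 4024 TPM in null males. Because TPM is a share, the room left by glue transcripts is filled by the other transcripts. With TPM rescaled to the sum of female-detected genes other than glue genes, the median over all genes was -1.0, and 950 genes were higher and 5932 lower.

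Ecdysone-regulated genes of late L3 were lower as a group. Of 19 tested genes of the ecdysone response list 13 were lower and none higher, with a list median of -1.74. After scaling 10 were lower, and 11 to 14 were lower in the fits that each left out 1 library. Beside this, 37% of all female-detected genes were lower in TPM and 17.6% after scaling. br, which encodes the Broad transcription factors of the early response, had 126, 122 and 72.95 TPM in control males 1 to 3 and 2.83, 15.2 and 3.95 TPM in clamp null males 4 to 6 (log2 fold change -3.96, SE 0.56, adjusted p = 0.0021). ImpE2, an ecdysone-inducible gene of imaginal discs, had 220.5, 173 and 174 TPM in control males 1 to 3 and 1.78, 0.764 and 1.17 TPM in clamp null males 4 to 6. This fall was uniform over the nulls (log2 fold change -6.43, SE 0.26, adjusted p = 7.8e-05). MsrA, known as an ecdysone-induced gene under an older name, fell by 1.42 (adjusted p = 0.0058) but was not called after scaling (-0.83, adjusted p = 0.057). Cth, the remaining example by level, had 74.3, 58.4 and 62.7 TPM in control males 1 to 3 and 53.2, 59.9 and 81.1 TPM in clamp null males 4 to 6, and the groups overlapped. Among the other falls were Eip78C, Hr3, Hr4, Eip74EF, Eip75B and the receptor gene EcR, with log2 fold changes of -4.85, -2.83, -2.92, -2.53, -2.22 and -1.74. ftz-f1, the prepupal competence factor, and the receptor partner usp were not called (0.1 and -0.88).

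Genes for making ecdysone were lower as well. sro and sad, which encode enzymes of the prothoracic gland, had 37.8, 33.1 and 35.8 TPM and 16.5, 19.2 and 18.8 TPM in control males 1 to 3. In null males 4 to 6 they had 1.87, 2.86 and 1.25 TPM and 0.714, 0 and 1.798 TPM. Both groups were well separated (log2 fold change -3.64, SE 0.28, adjusted p = 0.00053 for sro and log2 fold change -3.5, SE 0.41, adjusted p = 0.0013 for sad). phtm and Ptth, the latter encoding the brain hormone that drives the gland, fell by 3.02 and 2.92 on the log2 scale (adjusted p = 0.002 and 0.0052). In contrast Cyp18a1, whose enzyme inactivates ecdysone, had 6.79, 7.24 and 3.73 TPM in control males 1 to 3 and 30.1, 35.4 and 11.2 TPM in clamp null males 4 to 6 and was higher in null males (log2 fold change 1.83, SE 0.47, adjusted p = 0.016), a call that held in 4 of the 6 fits without 1 library. shd, the last hydroxylase, acts outside the gland and had 15.4, 16.2 and 17.9 TPM in control males 1 to 3 and 13.02, 18.03 and 13.3 TPM in clamp null males 4 to 6, with overlapping groups. In all, 7 of 11 tested genes of the list were lower and 1 higher. After scaling 4 were lower, as were 4 without control male 1 or without control male 3. Lower genes made up 37% of all female-detected genes in TPM and 17.6% after scaling. Of the juvenile hormone list, the epoxide hydrolase genes Jheh1 (log2 fold change 1.82, SE 0.32, adjusted p = 0.0044) and Jheh3 (log2 fold change 1.1, SE 0.28, adjusted p = 0.015) were higher. The hormone-responsive Kr-h1 was lower (log2 fold change -1.61, SE 0.33, adjusted p = 0.007), as was Jhedup (log2 fold change -1.53), and the other 4 of 8 tested members were not called. Jheh3 was not called without control male 1 or without null male 4, and the list had 4 falls without null male 5.

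Small heat shock protein genes, which are part of the ecdysone programme of late L3 without heat, were lower in null males. Hsp23 had 1155, 1208 and 1202 TPM in control males 1 to 3 and 20.5, 4.83 and 11.1 TPM in clamp null males 4 to 6. Hsp27 had 1439, 1263 and 1115 TPM in control males 1 to 3 and 29.6, 9.43 and 118 TPM in clamp null males 4 to 6, and null male 6 was the highest of the nulls. Neither overlapped with the controls (log2 fold change -6.7, SE 0.44, adjusted p = 0.00034 for Hsp23 and log2 fold change -5.24, SE 0.79, adjusted p = 0.0025 for Hsp27). Hsp26, Hsp67Bc and Hsp67Ba had log2 fold changes of -5.14, -4.17 and -3.7. Hsp83, the Hsp90 gene, fell by 0.99 (adjusted p = 0.0079), which was not called after scaling (adjusted p = 0.14). The constitutive Hsc70-4 had 1152, 1225 and 1105 TPM in control males 1 to 3 and 979, 1297 and 689 TPM in clamp null males 4 to 6 and its groups overlapped. Of 13 tested members 10 were lower and none higher in TPM and 6 were lower after scaling, beside 37% and 17.6% lower among all female-detected genes. Levels of the near-identical Hsp70 copies are uncertain, because reads are divided between them.

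Fat body proteins split by gene. Fbp1, the ecdysone-induced receptor for storage proteins, had 3395, 2114 and 1780.2 TPM in control males 1 to 3 and 7.01, 4.24 and 0.537 TPM in clamp null males 4 to 6 (log2 fold change -9.19, SE 0.61, adjusted p = 0.00034). Lsp2, a storage hexamerin of late L3, had 2818, 1828 and 2278 TPM in control males 1 to 3 and 30.00, 1224 and 16.5 TPM in clamp null males 4 to 6, so null male 5 came close to the controls while null males 4 and 6 were far below (log2 fold change -4.7, SE 1.47, adjusted p = 0.032; adjusted p = 0.061 after scaling, 1 of 6 calls without 1 library). Fbp2 showed the same order, with 2859, 1400.0 and 1557 TPM in control males 1 to 3 and 107, 1434 and 12.5 TPM in clamp null males 4 to 6, and was not called (adjusted p = 0.067). Of the other hexamerin genes, Lsp1beta and Lsp1gamma rose, whereas Lsp1alpha had 218, 144 and 205 TPM in control males 1 to 3 and 32.7, 907 and 284 TPM in clamp null males 4 to 6 and was not called (adjusted p = 0.92), with null male 4 below every control. Lsp1beta had 1068, 859.6 and 1393 TPM in control males 1 to 3 and 4362, 6444 and 2364 TPM in clamp null males 4 to 6 (log2 fold change 1.9, SE 0.38, adjusted p = 0.0064), and Lsp1gamma had 556, 445 and 724 TPM in control males 1 to 3 and 1119.5, 2852 and 1692 TPM in clamp null males 4 to 6 (log2 fold change 1.64, SE 0.36, adjusted p = 0.0091). Lipid carrier genes apolpp and Apoltp rose by 2.31 and 2.31 on the log2 scale, and the iron carrier Tsf1 by 1.13. The list had 5 members higher and 2 lower of 10, and 6 higher and 1 lower after scaling. The count of 2 falls was 3 without null male 5 and 1 in each other fit that left out a library.

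**Figure D2:**
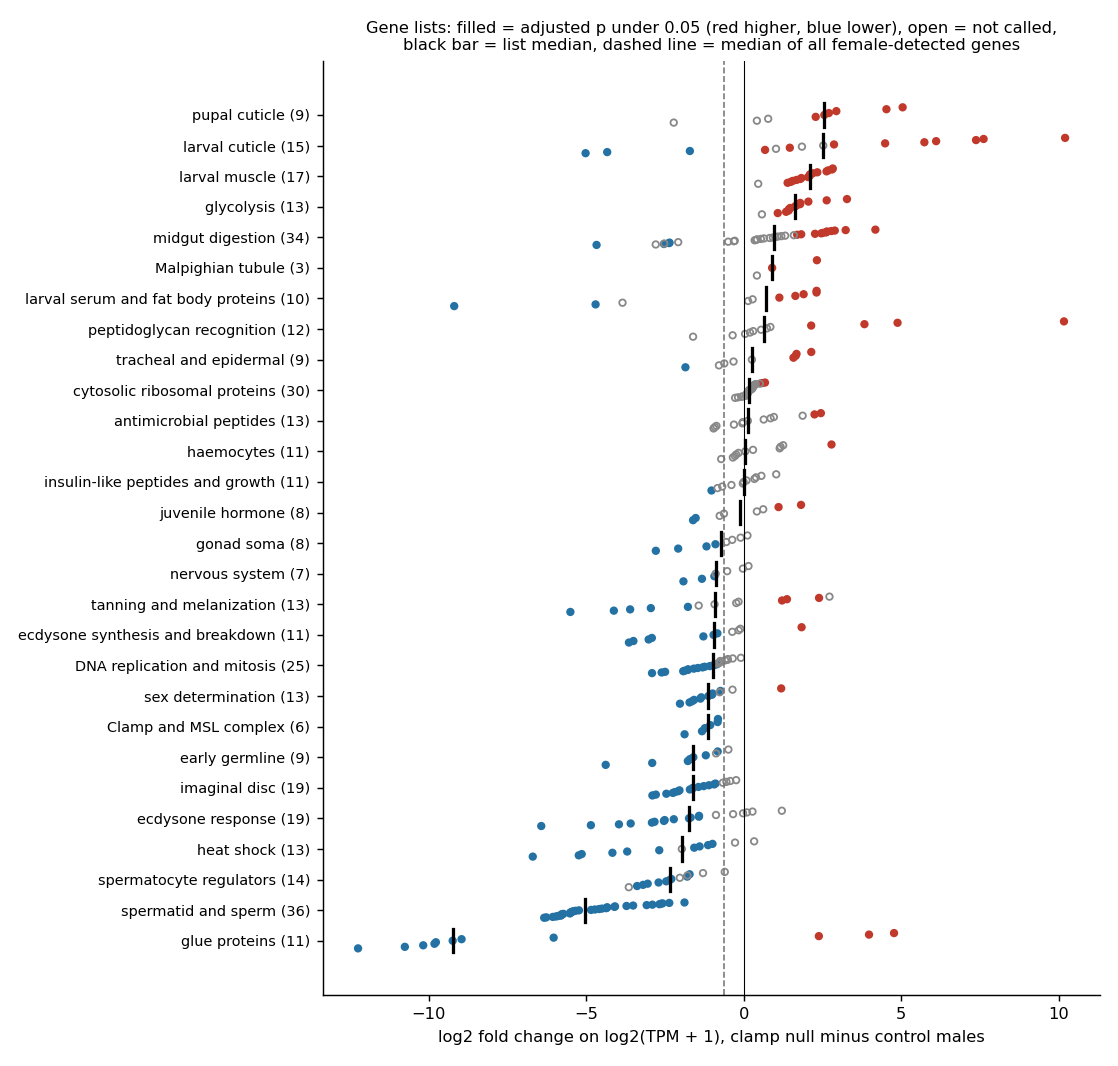
Log2 fold change (null minus control males, on log2(TPM + 1)) of each tested gene of 28 lists, ordered by list median; filled points were called (red higher, blue lower), open points were not, black bars are list medians and the dashed line is the median of all female-detected genes, -0.62. Glue, spermatid, heat shock and ecdysone lists lie at the low end and pupal cuticle, larval cuticle, muscle and glycolysis lists at the high end; after median-of-ratios scaling the medians of the insulin and juvenile hormone lists turn from below to above 0, and after rescaling without glue genes those of the antimicrobial, haemocyte and ribosomal lists turn from above to below 0.

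Cuticle protein genes moved in both directions. Lcp1 had 19310.0, 11410.0 and 13990.0 TPM in control males 1 to 3 and 325, 667 and 414 TPM in clamp null males 4 to 6 (log2 fold change -5.02, SE 0.31, adjusted p = 0.00032). Its neighbour Lcp2 fell by 4.33 (adjusted p = 0.011) and Lcp65Ad by 1.71 (adjusted p = 0.015). Against these 3 falls, 9 of 15 tested members of the larval cuticle list rose. Lcp3, on chromosome 2R beside Lcp1, had 2014, 2106 and 4001 TPM in control males 1 to 3 and 20978, 20504 and 15224 TPM in clamp null males 4 to 6 (log2 fold change 2.86, SE 0.29, adjusted p = 0.00094). Lcp4 next to it was abundant in both groups, with 14655, 12637 and 17251 TPM in control males 1 to 3 and 23319, 22498 and 24798 TPM in clamp null males 4 to 6 (log2 fold change 0.68, SE 0.16, adjusted p = 0.011; called in 4 of 6 fits without 1 library, and not after rescaling without glue genes). Lcp65Ab1 had 4146, 5524 and 8570.5 TPM in control males 1 to 3 and 14010.0, 9734 and 30009 TPM in clamp null males 4 to 6 (log2 fold change 1.46, SE 0.45, adjusted p = 0.03; 3 of 6). Genes that were near 0 in control males rose furthest, but such genes pass the filter only through null libraries and can only rise. Their values are a description. Cpr47Eg was listed at 0 TPM in all 3 control males and had 956, 243 and 6894 TPM in null males 4 to 6 (adjusted p = 0.001). Lcp65Ag1 had 1.12, 2.504 and 0.998 TPM in control males 1 to 3 and 239, 74.4 and 6097 TPM in clamp null males 4 to 6, and Lcp65Ag3 had 0, 0 and 1.83 TPM in control males 1 to 3 and 163, 48.3 and 1579.7 TPM in clamp null males 4 to 6 (adjusted p = 0.0057 and 0.0032). Null male 6 held by far the most of these transcripts. Lcp65Ag1, Lcp65Ag2 and Lcp65Ag3 are near-identical copies, as are Lcp65Ab1 and Lcp65Ab2, so how reads were split between them is uncertain. The pupal cuticle list had 6 of 9 tested members higher and none lower, on both scales, with 1 fall without null male 5. Of these Gasp, a chitin-binding protein of tracheae and cuticle, had 56.00, 59.1 and 58.2 TPM in control males 1 to 3 and 353, 489 and 133 TPM in clamp null males 4 to 6 (log2 fold change 2.28, SE 0.46, adjusted p = 0.0065). Acp1 was listed at 0 TPM in each control male and had 25.5, 17.6 and 71.4 TPM in null males. Pcp, with the highest level of the list, had 1090.0, 1935 and 626 TPM in control males 1 to 3 and 271, 958 and 48.9 TPM in clamp null males 4 to 6 and was not called.

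Enzymes that tan cuticle moved in both directions. e, which encodes the enzyme that joins beta-alanine to dopamine, had 9.55, 408 and 102 TPM in control males 1 to 3 and 0.971, 0.631 and 0.484 TPM in clamp null males 4 to 6, so the controls differed widely among themselves (log2 fold change -5.5, SE 1.19, adjusted p = 0.0086). ple and Ddc, which make dopa and dopamine, fell by 4.12 and 3.61 on the log2 scale (adjusted p = 0.0014 and 0.00084), and b by 2.95 (adjusted p = 0.012). yellow-d had 85.9, 116 and 94.7 TPM in control males 1 to 3 and 25.96, 23.3 and 36.3 TPM in clamp null males 4 to 6 (log2 fold change -1.77, SE 0.25, adjusted p = 0.002). stw, t and yellow-f2 were higher (1.37, 1.21 and 2.39). The prophenoloxidase genes PPO1 and PPO2 were not called and overlapped between the groups. In total, 3 of 13 tested members rose and 5 fell, with 1 rise without control male 3. The tracheal and epidermal list had 4 of 9 tested members higher and 1 lower, and 4 higher and 4 lower after rescaling without glue genes. The chitin deacetylase gene verm had 63.04, 67.9 and 68.98 TPM in control males 1 to 3 and 281, 329.9 and 284 TPM in clamp null males 4 to 6 (log2 fold change 2.14, SE 0.17, adjusted p = 0.00057), and serp had 54.6, 46.1 and 50.1 TPM in control males 1 to 3 and 137, 187 and 136 TPM in clamp null males 4 to 6 (log2 fold change 1.58, SE 0.21, adjusted p = 0.0018). obst-A, a chitin-binding matrix gene, rose by 1.67 (adjusted p = 0.021; 3 of 6 fits), and Cht2 was not called. Cht5, a chitinase used at moults, was the member that fell (log2 fold change -1.85, SE 0.41, adjusted p = 0.0093), with 3 falls in the list without null male 5.

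Muscle and glycolysis genes rose nearly without exception. Of 17 tested muscle genes 16 were higher and none lower in TPM, against 10.7% of female-detected genes, and all 17 were higher after scaling. Act57B, the main actin of larval muscle, had 1027, 887 and 1322 TPM in control males 1 to 3 and 5434, 8239.9 and 7087 TPM in clamp null males 4 to 6. up, a troponin T gene on the X chromosome, had 1395, 1006 and 1402 TPM in control males 1 to 3 and 4769.6, 6033 and 5234 TPM in clamp null males 4 to 6. Mlc2, a myosin light chain gene, had 1025, 948 and 1286 TPM in control males 1 to 3 and 5818, 6455 and 4269.9 TPM in clamp null males 4 to 6. The log2 fold changes of these and of Tm2 were 2.68 (adjusted p = 0.00061), 2.09 (adjusted p = 0.00073), 2.33 (adjusted p = 0.00072) and 2.11 (adjusted p = 0.0009), and in each gene the lowest null was above the highest control. The list sum was 9520, 8472 and 11107 TPM in control males and 37223, 47745 and 37197 TPM in null males. Of 13 glycolysis genes 12 were higher, again with none lower and with 13 higher after scaling. Gapdh1 had 629, 588 and 707 TPM in control males 1 to 3 and 1327, 1650.4 and 1129 TPM in clamp null males 4 to 6 (log2 fold change 1.08, SE 0.19, adjusted p = 0.0043), and Eno had 264, 248 and 316 TPM in control males 1 to 3 and 877, 1167 and 838 TPM in clamp null males 4 to 6 (log2 fold change 1.79, SE 0.2, adjusted p = 0.0011). Tpi and Ald1 rose by 1.42 and 1.62 on the log2 scale. Ldh, which makes lactate, rose furthest in the list, by 3.27, followed by Gpdh1 with 2.63. Only Hex-A was not called.

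**Figure D3:**
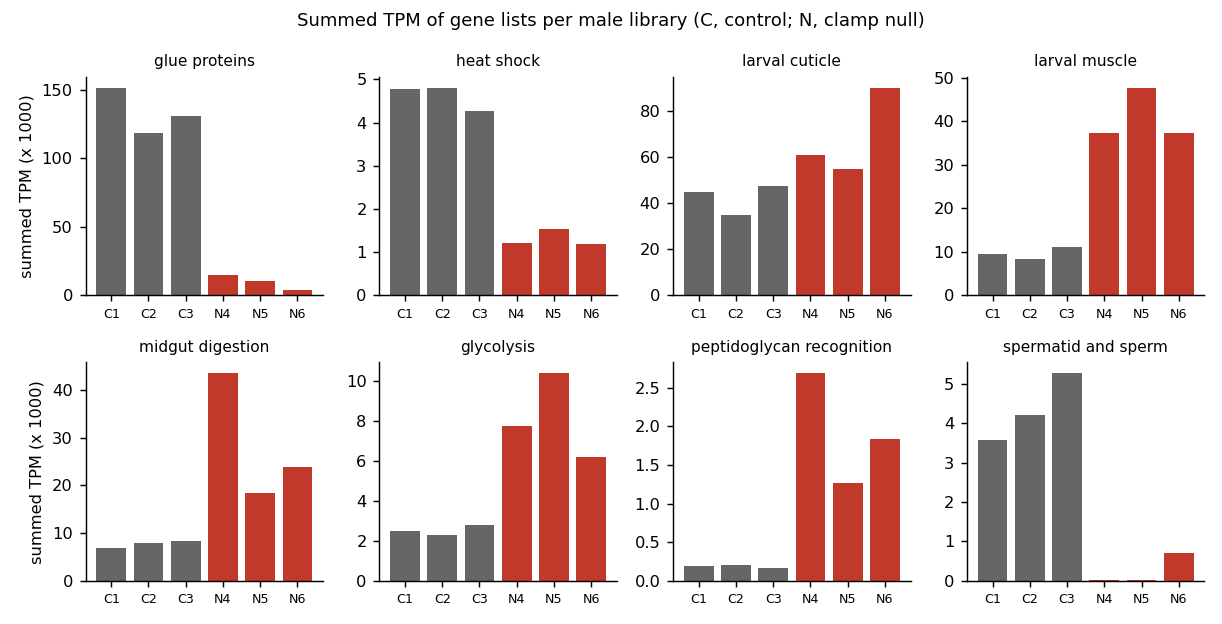
Summed TPM, in units of 1000, of 8 gene lists in control males 1 to 3 (C, grey bars) and clamp null males 4 to 6 (N, red bars), each axis starting at 0. Glue, heat shock and spermatid sums were lower in every null library than in any control, and larval cuticle, muscle, midgut, glycolysis and peptidoglycan recognition sums were higher.

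Digestive genes of the midgut rose in part. Jon99Ciii and Jon99Cii, near-identical serine protease genes between which the split of reads is uncertain, had 892, 929 and 776 TPM and 972, 958 and 1017 TPM in control males. In null males 4 to 6 they had 11557, 4697 and 4816 TPM and 10607, 4410.1 and 4614 TPM. Null male 4 was the highest for both (log2 fold change 2.89, SE 0.35, adjusted p = 0.0014 and log2 fold change 2.61, SE 0.34, adjusted p = 0.0017). Jon66Ci had 890.3, 1289.7 and 1256 TPM in control males 1 to 3 and 6018, 3464 and 3063 TPM in clamp null males 4 to 6 (log2 fold change 1.82, SE 0.29, adjusted p = 0.0031), whereas Jon65Aiv was not called (adjusted p = 0.092). Of 34 tested members 12 were higher and 4 lower, and 14 and 2 after scaling. Without null male 4 these counts were 6 and 1, without null male 6 they were 13 and 7, and without control male 1 or 2 there was 1 fall. The falls, named after their values were seen, were the amylase genes Amy-p and Amy-d (-2.36 and -2.53), the maltase gene Mal-A6 (-2.37) and the lysozyme gene LysX (-4.67). Summed TPM of the list was 6836, 7976 and 8391 in control males and 43528, 18329 and 23923 in null males.

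Among immune genes, 4 of 12 tested peptidoglycan recognition genes and 2 of 13 tested antimicrobial peptide genes were higher, beside 10.7% of all female-detected genes. PGRP-SC1a (chromosome 2R, 8709733 to 8710320), an amidase that breaks down peptidoglycan in the gut, was listed at 0 TPM in each control male and had 1939, 760.2 and 1013 TPM in null males 4 to 6 (adjusted p = 4.3e-05). Its near-identical copy PGRP-SC1b had 9.58, 4.38 and 7.09 TPM in control males 1 to 3 and 291, 98.4 and 403 TPM in clamp null males 4 to 6 (log2 fold change 4.88, SE 0.54, adjusted p = 0.0011). Reads may have been divided between the copies, but both were higher in every null. PGRP-SC2 had 14.9, 18.2 and 7.07 TPM in control males 1 to 3 and 213, 132 and 246 TPM in clamp null males 4 to 6 (log2 fold change 3.83, SE 0.4, adjusted p = 0.00094). PGRP-LF was the remaining rise (log2 fold change 2.14, SE 0.49, adjusted p = 0.01). No member of the list fell, PGRP-LE (-0.35) and PGRP-SB2 (-1.61) having the values below 0, and 7 were higher after scaling, PGRP-SA among them (1.31, adjusted p = 0.049). Without control male 1, 1 member of the list was lower. Antimicrobial peptide genes differed between null libraries. DptA had 35.2, 114 and 51.3 TPM in control males 1 to 3 and 401, 78.9 and 0 TPM in clamp null males 4 to 6, and CecC had 10.9, 17.9 and 88.9 TPM in control males 1 to 3 and 287, 154 and 2.29 TPM in clamp null males 4 to 6. Both were highest in null male 4 and lowest in null male 6. Drs had 130.4, 96.3 and 46.1 TPM in control males 1 to 3 and 234, 74.8 and 43.1 TPM in clamp null males 4 to 6 and Mtk had 0, 18.9 and 13.96 TPM in control males 1 to 3 and 36.6, 45.3 and 0 TPM in clamp null males 4 to 6, and neither was called. AttC and AttD were the 2 of 13 tested members called higher (2.24 (adjusted p = 0.019) and 2.45 (adjusted p = 0.01)), and the count was 4 without null male 6 and 1 without control male 1, control male 3, null male 4 or null male 5.

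Genes of imaginal discs and of DNA replication and mitosis were lower. In the imaginal disc list 15 of 19 tested genes fell and none rose, with a median of -1.61; 9 fell after scaling, and 10 to 16 in the fits without 1 library. al had 13.2, 16.5 and 9.78 TPM in control males 1 to 3 and 2.38, 2.61 and 1.03 TPM in clamp null males 4 to 6 (log2 fold change -2.25, SE 0.35, adjusted p = 0.0027), and Dll and en fell by 2.9 and 2.46 on the log2 scale. ap fell by 0.94 (adjusted p = 0.037; 2 of 6 fits), and the gene so by 0.90 (adjusted p = 0.027; 3 of 6 fits), and neither was called after scaling. sd had 18.2, 14.5 and 13.3 TPM in control males 1 to 3 and 10.7, 18.2 and 6.77 TPM in clamp null males 4 to 6 and was not called. Of 25 genes of DNA replication and mitosis 15 fell and none rose, 8 after scaling and 9 without control male 3. For both lists, the share of falls over all female-detected genes was 37% in TPM and 17.6% after scaling. CycB had 38.9, 39.7 and 45.6 TPM in control males 1 to 3 and 5.55, 4.96 and 9.77 TPM in clamp null males 4 to 6 (log2 fold change -2.5, SE 0.29, adjusted p = 0.0013), and polo had 49.5, 34.9 and 41.01 TPM in control males 1 to 3 and 10.2, 8.32 and 14.2 TPM in clamp null males 4 to 6 (log2 fold change -1.86, SE 0.28, adjusted p = 0.0024). CycB and polo were higher in every control male than in any control female. Control females had 13.7, 23.05 and 16.4 TPM of CycB and 19.3, 21.6 and 11.5 TPM of polo. Null females had 2.95, 3.13 and 8.66 TPM of CycB and 7.16, 6.03 and 11.2 TPM of polo. How much of the male level came from the testis was not tested. PCNA, the replication clamp, fell by 0.98 (adjusted p = 0.022) but by 0.41 and without a call after scaling, and E2f1 overlapped between the groups. The median of this list was -0.98, beside -0.62 for all female-detected genes.

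Of 30 ribosomal protein genes 2 were higher and none lower, with a median of 0.17, which became 0.76 with 25 higher after scaling and -0.07 with 1 higher and 1 lower after rescaling without glue genes. Without null male 6, 8 were higher in TPM, and 1 without any 1 control male or null male 4. RpL32 had 4093, 5345 and 4815 TPM in control males 1 to 3 and 6184, 6017 and 5569 TPM in clamp null males 4 to 6. Insulin-like peptide and growth genes gave 1 fall (mTor, -1.03) in 11, lost after scaling and without any 1 control male or null male 4, and 2 rises without null male 6. Thor, the 4E-BP gene, had 1181, 981 and 1031 TPM in control males 1 to 3 and 1786, 1773 and 759.5 TPM in clamp null males 4 to 6. Thor was not called, but was higher without null male 6 (adjusted p = 0.0054). Of 11 haemocyte genes NimC1 alone was called (log2 fold change 2.75, SE 0.7, adjusted p = 0.016), and it was not called without any of the 3 controls in turn. After scaling 3 of the list were higher, and 2 were higher without null male 4 or without null male 6. After rescaling without glue genes 1 of the list was lower, as was 1 without null male 5. Uro, a urate oxidase gene of the Malpighian tubule, had 32.6, 24.5 and 12.2 TPM in control males 1 to 3 and 48.4, 156 and 180.2 TPM in clamp null males 4 to 6 (log2 fold change 2.32, SE 0.57, adjusted p = 0.014), and NaPi-T was higher too (0.9), but only in 1 of the 6 fits without 1 library and not after rescaling without glue genes. In the nervous system list 3 of 7 tested genes fell, brp, nSyb and nrv2 (-1.91, -1.33 and -0.93), with 1 after scaling, and 8 of 15 listed genes were under the limit. Of all female-detected genes 37% fell in TPM and 17.6% after scaling, and the nervous system counts lie close to these shares. In the gonad soma list, eya, hh, Wnt4 and so fell among 8 tested, of which eya, hh and so are disc genes as well; 2 fell without control male 2 or without control male 3, and 2 after scaling.

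Genes of sex determination were lower in TPM. Of 13 tested genes of sex determination 10 were lower and 1 higher, with a median of -1.12. dsx had 9.75, 9.34 and 6.64 TPM in control males 1 to 3 and 1.503, 1.92 and 0.717 TPM in clamp null males 4 to 6 (log2 fold change -2.03, SE 0.32, adjusted p = 0.0031), and tra had 49.8, 46.00 and 48.8 TPM in control males 1 to 3 and 17.4, 27.95 and 20.6 TPM in clamp null males 4 to 6 (log2 fold change -1.12, SE 0.24, adjusted p = 0.0081; adjusted p = 0.055 after scaling). Sxl, the switch gene of the pathway, had 14.2, 15.8 and 11.98 TPM in control males 1 to 3 and 11.8, 26.6 and 3.45 TPM in clamp null males 4 to 6 and was not called. da (-1.58), fl(2)d (-1.01) and snf (-0.74) act upstream of or with Sxl and were lower, of which only da was called after scaling. The rise, fru (log2 fold change 1.19, SE 0.28, adjusted p = 0.012), was lost without control male 1. The 10 falls numbered 3 after scaling and 4 to 6 without any 1 control male or null male 4. Of all female-detected genes 37% were lower in TPM and 17.6% after scaling.

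The largest rises and falls of female-detected genes included many without a named function. CG13560 (chromosome 2R, 23747560 to 23748477) had 13.2, 3.82 and 1.56 TPM in control males 1 to 3 and 9614, 2577 and 3022 TPM in clamp null males 4 to 6 (log2 fold change 9.56, SE 0.73, adjusted p = 0.00052). CG13230 had 0, 4.26 and 3.33 TPM in control males 1 to 3 and 1780.5, 2358 and 489 TPM in clamp null males 4 to 6 (log2 fold change 8.81, SE 0.8, adjusted p = 0.00072), and CG11350 had 0.755, 7.64 and 1.704 TPM in control males 1 to 3 and 845, 794 and 2922 TPM in clamp null males 4 to 6 (log2 fold change 8.5, SE 0.72, adjusted p = 0.00061). Each was above every control by a wide margin in all 3 nulls. CG30457 (6.91), CG15515 (7.25), CG15597 (6.47) and the cuticle protein gene Cpr67Fa1 (6.57) followed, with adjusted p-values of 0.00061, 0.0016, 0.0031 and 0.0058. TotC, a secreted stress factor, was listed at 0 TPM in the controls and had 35.5, 1645 and 10.7 TPM in null males, most of it in null male 5 (adjusted p = 0.016; 3 of 6 fits). Among the falls besides glue genes, CG7606 (chromosome 3R, 17596536 to 17598453) had 1538, 1396 and 952 TPM in control males and was listed at 0 TPM in every null male (adjusted p = 9.5e-06). CG14664 had 332, 904 and 449.7 TPM in control males 1 to 3 and 0, 0.426 and 0.314 TPM in clamp null males 4 to 6 (log2 fold change -8.7, SE 0.4, adjusted p = 0.00011). CG17105 (log2 fold change -8.37, SE 0.5, adjusted p = 0.00028) and CG43679 (log2 fold change -7.79, SE 0.78, adjusted p = 0.0009) were likewise close to 0 in the nulls. These genes were picked by size of change, and their size is given as a description.

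Null libraries also differed from each other at single genes. Among 4695 female-detected genes that averaged at least 10 TPM in null males, 104 were at least 4-fold higher and 73 at least 4-fold lower in null male 6 than in both other nulls. The same counts were 9 and 12 for null male 4 and 23 and 37 for null male 5. Of the 104 genes, 10 carry symbols of cuticle protein families, which 46 of the 4695 genes carry. Cpr65Ax2 was the most abundant, with 4.304, 26.8 and 11.9 TPM in control males 1 to 3 and 232, 174 and 17637 TPM in clamp null males 4 to 6. Low in null male 6 but not in the other nulls were CG17325, with 573, 673 and 943 TPM in control males 1 to 3 and 8317, 9117 and 918 TPM in clamp null males 4 to 6, and MtnA, a metallothionein gene that binds copper and other metals, with 196, 206 and 203 TPM in control males 1 to 3 and 5297, 4552 and 600.0 TPM in clamp null males 4 to 6. For MtnA null male 6 was still above every control. CG14265 had 1753, 1476 and 2922 TPM in control males 1 to 3 and 5004, 8629.6 and 539 TPM in clamp null males 4 to 6, so null males 4 and 5 lay above and null male 6 below the controls. Null male 5 was set apart by TotA, with 103, 115 and 170.2 TPM in control males 1 to 3 and 927, 5538 and 98.8 TPM in clamp null males 4 to 6, and null male 4 by the protease gene Jon65Aiii, with 182, 156 and 226 TPM in control males 1 to 3 and 1195, 294 and 284 TPM in clamp null males 4 to 6. These genes were chosen after their values were seen and are a description of the libraries.

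Testis-type genes gave the sharpest split between null libraries. Among the 1173 female-undetected genes tested 933 were lower (79.5%) and 32 higher (2.73%), with a median of -2.63; after scaling 816 were lower (69.6%) and 35 higher (2.98%). Without null male 6 the counts were 995 (84.8%) and 48 (4.09%), and null male 6 alone gave 722 and 57. At least 1 TPM was reached by 1045, 1043 and 1063 of these genes in control males 1 to 3, by 116 and 104 in null males 4 and 5, and by 750 in null male 6. Null females had 99, 115 and 101. The summed TPM of all 2764 genes of the class was 14488, 15086 and 18733 in control males, 2951 and 2811 in null males 4 and 5 and 7826 in null male 6. It was 4490, 3805 and 3330 in null females. The sums of null libraries include genes that rose in nulls of both sexes, such as CG14419, described below. They are thus not a measure of testis RNA alone. Null males 4 and 5 thus lay at the level of null females in the number of these genes, and null male 6 lay between them and the controls.

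Stages of spermatogenesis were unequally low in null male 6. The spermatocyte regulators, which encode the testis-specific transcription machinery (tomb, aly, topi, Taf12L, sa and others), summed to 266, 228 and 232 TPM in control males, to 8.85 and 15.1 TPM in null males 4 and 5 and to 138 TPM in null male 6. Taf12L had 41.9, 35.4 and 46.1 TPM in control males 1 to 3 and 0, 0 and 36.3 TPM in clamp null males 4 to 6, so null male 6 lay within the controls, and the gene was not called (adjusted p = 0.055; 1.5e-05 without null male 6). wuc had 24.2, 14.8 and 22.4 TPM in control males 1 to 3 and 0, 0 and 15.4 TPM in clamp null males 4 to 6, and tomb had 23.2, 23.3 and 15.4 TPM in control males 1 to 3 and 0, 0 and 7.46 TPM in clamp null males 4 to 6. bol, which encodes an RNA-binding protein of meiotic entry, had 66.3, 50.5 and 52.2 TPM in control males 1 to 3 and 3.55, 2.35 and 14.8 TPM in clamp null males 4 to 6 (log2 fold change -3.2, SE 0.57, adjusted p = 0.0042). In this list 9 of 14 tested genes fell, 3 after scaling and 13 without null male 6, and leaving out any 1 of the other libraries gave 3 to 5. Among all genes tested, 43.5% fell in TPM and 25.9% after scaling. Spermatid and sperm genes were far lower in all 3 nulls. Mst87F, a sperm tail protein gene, had 289, 468 and 634 TPM in control males 1 to 3 and 0, 2.06 and 60.9 TPM in clamp null males 4 to 6 (log2 fold change -6.27, SE 1.38, adjusted p = 0.0092). Mst84Da, Mst84Db and Mst84Dd of the same family and cluster (Mst84Da at chromosome 3R, 7365850 to 7366262) fell by 6.33, 4.85 and 5.96 on the log2 scale. All 36 tested genes of the list were lower, with a median of -5.04, 35 after scaling and 34 to 36 in the fits without 1 library. The list summed to 3584, 4205 and 5282 TPM in control males, 9.71 and 21.3 TPM in null males 4 and 5 and 704 TPM in null male 6. In percent of the control mean, null male 6 thus had 57.0% of the spermatocyte regulator sum but 16.2% of the spermatid and sperm sum, while null males 4 and 5 had 3.66% and 6.25% of the former and 0.22% and 0.49% of the latter. Gene by gene, null male 6 was within 1 log2 unit of the control mean for 11 of 14 spermatocyte regulators and for none of 36 spermatid and sperm genes. This is 1 library, with no replicate of its pattern.

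**Figure D4:**
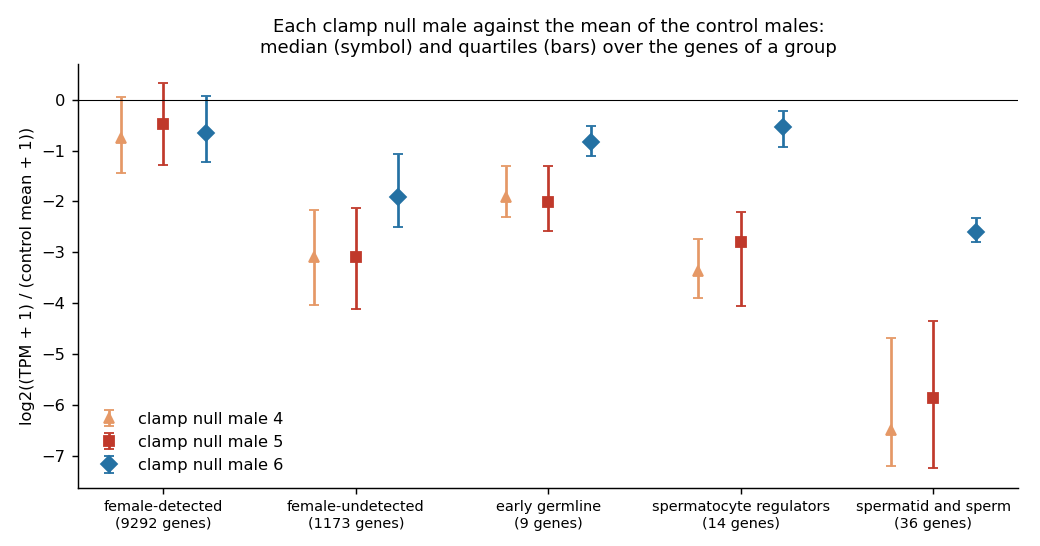
Log2 ratio of each clamp null male to the mean of the 3 control males, on TPM + 1, for 5 groups of genes; symbols are medians and bars run from the lower to the upper quartile over genes. Null male 6 (blue) lies at -0.53 for spermatocyte regulators and at -2.60 for spermatid and sperm genes, while null males 4 and 5 lie at -3.36 and -2.79 and at -6.50 and -5.87.

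Early germline genes were low in null males 4 and 5 and less uniformly so in null male 6. bam, which ends the transit divisions of the early germline, had 45.9, 24.1 and 21.3 TPM in control males 1 to 3 and 0, 0.251 and 1.31 TPM in clamp null males 4 to 6 (log2 fold change -4.38, SE 0.44, adjusted p = 0.00091). Its exons overlap those of CG11854. The fall of bam was not particular to males. Control females had 36.8, 18.3 and 11.1 TPM and null females 0.439, 0.216 and 1.31 TPM (limma log2 fold change -3.70, adjusted p = 0.015). stil had 14.8, 9.63 and 15.9 TPM in control males 1 to 3 and 0, 0 and 5.76 TPM in clamp null males 4 to 6 (log2 fold change -2.91, SE 0.76, adjusted p = 0.017; 3 of 6 fits), so null male 6 was nearer the controls. ovo fell by 1.21 (adjusted p = 0.027, 2 of 6 fits) and Tdrd3 by 0.83 (adjusted p = 0.031, 1 of 6 fits). ovo had 1.77, 2.63 and 0.707 TPM in null males 4 to 6, so null male 6 was the furthest from the controls. Tdrd3 had 17.4, 20.3 and 14.5 TPM in control females and 18.8, 11.1 and 18.6 TPM in null females. In which tissues either was expressed was not tested. Of 9 tested early germline genes 7 fell, 3 after scaling, 8 without null male 6 and 2 to 4 without any 1 of the other libraries. Beside this, 43.5% of all genes tested fell in TPM and 25.9% after scaling. aub, a piRNA pathway gene, had 2.71, 1.81 and 1.505 TPM in control males 1 to 3 and 0, 0 and 3.19 TPM in clamp null males 4 to 6, and zpg, a germline gap junction gene, had 2.197, 1.49 and 0.691 TPM in control males 1 to 3 and 0, 0 and 3.87 TPM in clamp null males 4 to 6. In both null male 6 was above every control and the other nulls were at 0, and neither was called. Null male 6 was within 1 log2 unit of the control mean for 6 of the 9 genes. The list sum of null male 6, where bam took a large part of the control sums, was 44.1% of the control mean, against 15.1% and 16.8% in null males 4 and 5. Other female-undetected genes with high levels in control males followed the spermatid pattern. tHMG2, a high mobility group gene, had 104, 94.6 and 192 TPM in control males 1 to 3 and 0, 0 and 12.2 TPM in clamp null males 4 to 6, and the dynein light chain gene Cdlc2 had 96.4, 90.1 and 89.7 TPM in control males 1 to 3 and 0, 0 and 16.3 TPM in clamp null males 4 to 6. CG17666, CG31870, CG31639, CG10934 and Mst84Dc were between 51.9 and 231 TPM in every control male, at 1.29 TPM or less in null males 4 and 5 and between 8.53 and 32.6 TPM in null male 6.

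A small set of female-undetected genes rose. CG14419 (chromosome X, 2885186 to 2885914) was listed at 0 TPM in each control male and had 1090.5, 949 and 691 TPM in null males 4 to 6 (adjusted p = 9.5e-06). CG3588, on the X chromosome as well, was also listed at 0 TPM in the controls and had 189, 307 and 277 TPM in the nulls (adjusted p = 3.7e-05). Null libraries were close to each other at both genes. p24-2, listed at 0 TPM in the controls, had 167, 53.8 and 38.3 TPM, and CG16772, likewise at 0, had 25.9, 21.3 and 23.02 TPM in the nulls. CG13170, CG43316, CG16898 and BomBc3, an immune-induced peptide gene, reached 7.22 to 272 TPM in the nulls and at most 4.21 TPM in a control. In females 7 of the 8 were called higher as well, with log2 fold changes of 4.4 to 10.39, and CG43316 was not (1.46, adjusted p = 0.21). Among the 947 tested genes under 0.5 TPM in all 6 female libraries, nulls included, limma called none higher in null males, and 1 had an unadjusted p under 0.05. This choice leaves out genes that rose in null females as well, so the lack of rises is in part fixed by it.

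X-linked and autosomal genes had nearly the same median change. The median log2 fold change was -0.61 over 1487 X-linked female-detected genes and -0.63 over 7723 on arms 2L, 2R, 3L and 3R, a difference of 0.016. Against the control mean this difference was 0.066, 0.085 and -0.046 in null males 4, 5 and 6, while each control against the other controls gave -0.012, 0.053 and -0.032. The null values lay on both sides of 0, as did those of single controls, over a somewhat wider range, and no sign can be read from them. Of X-linked genes 9.41% were higher and 36.2% lower, against 10.98% and 37.5% of the autosomal ones, and after scaling 17.1% and 14.9% against 18.1% and 18.3%. The females gave a difference of -0.14, and whether the sexes differ in it was not tested. The 68 genes of chromosome 4 had a median of -0.11, with -0.25, 0.29 and -0.75 in null males 4, 5 and 6.

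The effect of genotype was next compared with that in females, whose 6 libraries share none with the males. Among female-detected genes, 680 were higher (7.32%) and 1181 lower (12.7%) in null females. Of the 998 rises in males 449 were also called higher in females, which is 45.0% of the male and 66.0% of the female rises. Of the 3442 falls in males 915 were called lower in females, 26.6% of the male and 77.5% of the female falls. In sign, 94.5% of the male rises and 92.0% of the male falls had the same direction in females, and the median female log2 fold change was 1.34 for the male rises and -0.83 for the male falls. Without null male 6, 562 rises and 970 falls were shared with females, and 94.7% and 91.4% of the male calls had the female sign; for null male 6 alone they were 334 and 789, and 87.2% and 86.5%. Called in both sexes and on both scales in males were 449 rises and 593 falls. Sgs7, Lcp1, Hsp23, ImpE2, Act57B and PGRP-SC1a were among them, with female log2 fold changes of -10.5, -4.31, -6.54, -5.52, 2.55 and 8.13.

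A test of the difference between the sexes (interaction, all 12 libraries) called 436 female-detected genes (4.69%). Of these, 380 were lower in males relative to females and 56 higher. Some female-detected genes were far higher in males to begin with. Control males were at least 4-fold above control females in 187 of the 380 genes (49.2%), in none of the 56, and in 3.37% of all female-detected genes. As the control males enter both values, this share is a description. The test pools the spread of all groups, and female values near 0 can make that spread too small. The p-values of such genes can then be too small. CG5050 had 75.1, 86.9 and 86.5 TPM in control males 1 to 3 and 11.2, 19.5 and 11.3 TPM in clamp null males 4 to 6, and CG14995 had 164, 203 and 172 TPM in control males 1 to 3 and 14.5, 19.2 and 40.7 TPM in clamp null males 4 to 6. Both fell in males (-2.52 and -2.93) and rose in females (1.77 and 1.34). Control females had 8.90, 4.24 and 3.83 TPM of CG5050 and 6.82, 7.22 and 4.55 TPM of CG14995. Null females had 23.7, 15.6 and 23.2 TPM of CG5050 and 21.6, 15.3 and 14.7 TPM of CG14995. At both genes the null groups lay closer to each other than the control groups did. The sex of null males 4 and 5 was not settled, which limits any reading of these calls as an effect of sex. CG31808, dpr17, CG16984 and toc had male log2 fold changes of -2.79, -2.76, -2.87 and -2.08. CG17470 had 90.2, 83.4 and 121 TPM in control males 1 to 3 and 0, 0 and 3.02 TPM in clamp null males 4 to 6 and fell in both sexes (-5.94 in males and -1.22 in females). In females CG17470 went from 1.59, 1.44 and 0.988 TPM in controls to 0 in each null, so the floor limits its female value. CG31808, dpr17 and CG16984 were at 2.72 TPM or less in control females. A fall of the male size was not possible from there on this scale. CG11226 was the exception among the 8 smallest p-values, with no call in males (-0.52) and a rise of 3.26 in females. Of the spermatid and sperm list, 5 of 10 female-detected members were among the 436. The glue, heat shock, muscle, pupal cuticle, peptidoglycan recognition and ribosomal lists held none by limma, and 0, 3, 2, 2, 1 and 0 at an unadjusted p under 0.05. The count of 436 ranged from 231 without control male 3 to 728 without null male 6.

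**Figure D5:**
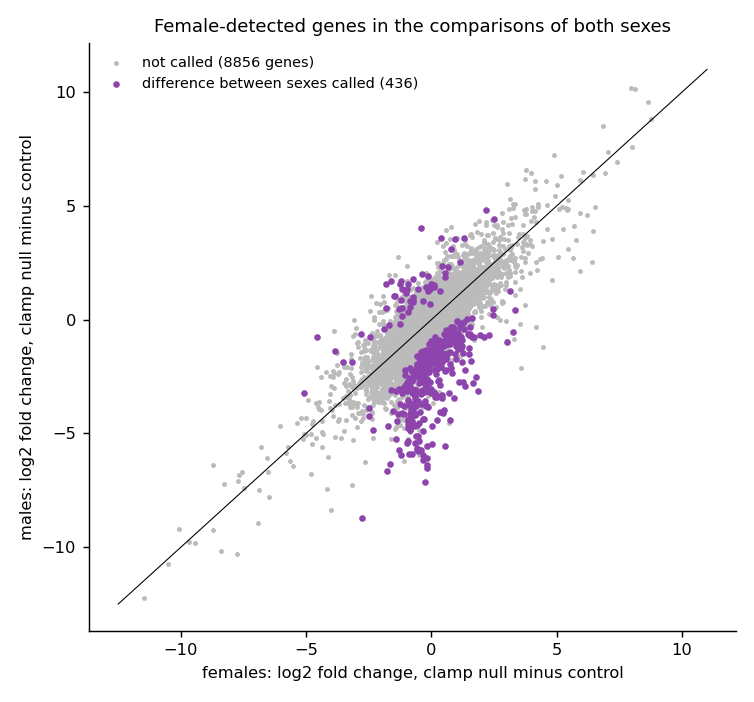
Log2 fold change of the 9292 female-detected genes in males (vertical) against females (horizontal), null minus control on log2(TPM + 1), with the line of equal change. Purple points are the 436 genes whose difference between the sexes was called, most of them below the line, where the male value is the lower. Glue genes lie at the lower left and the large rises at the upper right. Of these rises some lie above the line, such as Cpr67Fa1 (6.57 in males and 3.77 in females) and CG15515 (7.25 and 4.88). Others lie below it, such as CG30457 (6.91 and 7.43).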

How the data were processed

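The authors trimmed the reads (Trim Galore and cutadapt are named in the processing notes, with FastQC, Bowtie2 and the genome build dm6), and quantified transcripts with Salmon for a SUPPA-based pipeline, as the methods of the study state. The deposited values are TPM, 1 file per library with every transcript quantified, and sum to 1000000. Whether the protocol marks strand is not given in the sources used here, so overlapping genes share reads.

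Transcript TPM was summed per gene with the Ensembl release 115 annotation (BDGP6.54, dm6 coordinates), which held 29926 of 29936 transcripts. The others reached at most 58.0 TPM in a library. limma 3.58.1 (R 4.3.3) with a variance trend was fitted to log2(TPM + 1) of the 6 male libraries for genes averaging at least 1 TPM over them, with Benjamini-Hochberg adjusted p under 0.05. The same fit was made for the females over the same genes, and the interaction over all 12 libraries. Replicate numbers are not shared between male groups. Tested on simulated data with 11384 genes, the male fit recovered 99 of 100 genes changed by 2 and 55 of 100 changed by 1 (log2), with 11 other genes called. The simulated spread was that of the control males alone, and the changed genes were few and drawn from the more abundant ones. The null males differed more among themselves than the controls, so these figures do not carry over to the real comparison.

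Named genes were Clamp, the MSL and sex genes, up to 4 members of each of 29 lists with the highest mean TPM, the 12 largest separated rises and falls of female-detected genes, the 8 highest and 8 most raised female-undetected genes and the 8 smallest interaction p-values. Others are marked, or stand in the text as further members of a list. The comparison, the gene classes and the lists were chosen with earlier results of these data known. A gene that this rule names is not reported here. No sequence is shown.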

Additional observations from a re-analysis of the deposited data

Results flagged for a closer look

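For 14 named genes the effect of genotype differed between males and females by a test of the difference itself (limma interaction over the 12 libraries, adjusted p under 0.05). Each value is the log2 fold change in males minus that in females. The sex of null males 4 and 5 was not settled, which limits any reading of these differences as an effect of sex. The female-detected genes chosen for the smallest interaction p, CG5050, CG16984, CG14995, CG31808, dpr17, CG17470, toc and CG11226, differed by -4.29, -3.20, -4.27, -4.46, -3.84, -4.73, -2.47 and -3.78. Other female-detected genes named in the report, msl-3, bol, yellow-d and CG14664, differed by -1.28, -3.28, -1.38 and -5.95; for msl-3 the adjusted p was 0.046, and the male fall was not called after median-of-ratios scaling. e differed by -6.67, with 9.55, 408 and 102 TPM in control males 1 to 3 and 0.971, 0.631 and 0.484 TPM in clamp null males 4 to 6. CG43316, which rose in males, differed by 2.82 (adjusted p = 0.049). Female-undetected genes that fell in males are left out, since they cannot fall in females and a difference between the sexes is fixed for them. CG17470, CG16984, CG31808 and dpr17 were at 2.72 TPM or less in control females. For them a fall of the male size was likewise not possible in females on this scale.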

How the results depend on the processing

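Median-of-ratios scaling gave 1799 genes higher and 2949 lower in all, 1667 and 1639 among female-detected genes, and 274 interaction calls. Over the fits that each left out 1 library, genes higher numbered 792 to 1394 and lower 3492 to 5417. For female-detected genes the ranges were 708 to 1252 higher and 2164 to 3797 lower, for female-undetected genes 27 to 48 higher and 778 to 995 lower, and for interaction calls 231 to 728. The count of 500 female-undetected falls at a mean of at least 5 TPM follows from the smaller number of genes tested. Female-undetected rises, 32 as reported, were 49 without a filter, 16 at a mean of at least 5 TPM, 52 in a fit of all 12 libraries, 57 with array weights, 57 for null male 6 alone (added after the data were seen), 19 with class limits of 5 and 0.1 TPM and 0 with the class set from all 6 female libraries. The class from all 6 female libraries leaves out genes that rose in null females, so its count of 0 is in part fixed. Interaction calls were 147 with a pseudocount of 0.1 and 1507 with array weights, and the cause was not tested. With a replicate block (numbers shared between the sexes) they were 353 beside 436; deviations of same-numbered libraries correlated at -0.067 to 0.317, so the numbers were not taken as pairs. No paired analysis was possible for the male comparison because its groups share no number. The X-linked minus autosomal median ranged from -0.055 to 0.069 over all alternatives. Of 153 named genes 118 were called. Over 16 alternatives 112 values lost and 44 gained a call, and 2224 kept their sign and their side of the threshold. The other 63, in 26 genes, changed sign, and none of these was called in either fit. Their log2 fold changes after median-of-ratios scaling were 0.18 (Sxl), 0.029 (bnb), 0.20 (Fas3), 0.56 (Cth), 0.39 (shd), 0.53 (foxo), 0.32 (Hsc70-4), 0.42 (PPO2), 0.34 (PPO1), 0.12 (sd), 0.54 (Syt1), 0.26 (Cht2), 0.52 (RpS23) and 0.043 (CG11226). Their log2 fold changes after rescaling without glue genes were -0.091 (zfh1), -0.14 (Ilp2), -0.11 (Drs) and -0.092 (RpL19). Their log2 fold changes with array weights were -0.24 (zfh1), 1.59 (DptA), 0.079 (Syt1), -0.19 (Pxn) and 0.050 (RpS23). Their log2 fold changes with a pseudocount of 5 were -0.019 (Ilp2) and 0.021 (foxo). Their log2 fold changes for null male 6 alone were -0.82 (zfh1), 0.32 (Cth), -0.48 (Thor), -0.24 (PGRP-SA), -0.94 (Drs), -3.05 (CecC), -2.74 (Mtk), 0.65 (PPO2), 0.36 (PPO1) and -0.036 (Oatp58Da). Over the fits without 1 library the log2 fold changes ran from -0.27 to 2.96 for CecC, from -0.20 to 0.10 for Cth, from -2.75 to 1.58 for DptA, from -0.55 to 0.66 for Drs, from -0.76 to 0.52 for Ilp2, from -1.47 to 0.14 for Ilp6, from -0.52 to 2.64 for Mtk, from -0.023 to 0.66 for Oatp58Da, from -0.56 to 0.20 for PPO1, from -0.57 to 0.40 for PPO2, from -0.29 to 0.74 for Pxn, from -0.17 to 0.015 for RpS23, from -0.98 to 0.34 for Sxl, from -0.30 to 0.30 for Syt1, from -0.44 to 0.26 for foxo and from -0.74 to 0.59 for zfh1. The depth of the libraries is unknown.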
